A study of Homo sapiens with 4 samples.

Results

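The Wnt and β-catenin pathway was examined through 10 of its genes, CTNNB1, APC, AXIN1, AXIN2, LGR5, DKK1, NKD1, LEF1, TCF7L2 and TBX3. They were picked by gene symbol, and all 10 were found among the 16370 genes with counts in the series. The series held 4 RNA sequencing libraries, 1 per cell line. Hep3B and Huh7 are established human hepatoma lines and made up the hepatocellular carcinoma (HCC) group. The hepatic cancer stem cell (HCSC) group held Hep3B-C, cultured out of Hep3B for stem-like properties, and Huh7-C, cultured out of Huh7. Each culture was compared with its own parent, giving the Hep3B pair (15480 genes) and the Huh7 pair (14807 genes), of which 13917 genes were shared. No allele or agent was given for any line, and the HCSC lines were cultures enriched for stem-like cells rather than sorted cells.

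Wnt ligands bind a Frizzled receptor and an LRP co-receptor at the cell surface. Without ligand, a destruction complex built on APC and AXIN1 marks β-catenin for degradation. With ligand the complex is held back, and β-catenin enters the nucleus, binds TCF/LEF factors and switches on target genes, several of which feed back on the pathway. In the liver the pathway sets the gene programme of hepatocytes around the central vein, and it is often activated in hepatocellular carcinoma.

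The 4 libraries had 2896418 (Hep3B), 4641927 (Hep3B-C), 4537510 (Huh7) and 4333808 (Huh7-C) counts on genes. Levels are given as CPM, that is, counts scaled to these totals, where 3 counts correspond to 0.646 to 1.04 CPM, and as RPKM (CPM per kilobase of gene length) where genes are compared with each other. All 8 hepatocyte markers examined were detected in every library, although ALB and AFP were far lower in the Huh7 lines (ALB 106 and 267 CPM in Huh7 and Huh7-C, AFP 5.73 and 2.77) than in the Hep3B lines (ALB 19500 and 18500 in Hep3B and Hep3B-C, AFP 5580 and 905). Huh7 is known as a line that makes albumin and AFP, so these levels go against the label. The identity of the libraries was not tested, and Huh7 and Huh7-C stand throughout for the libraries so labelled. Results of the Hep3B pair do not use them, whereas those of the Huh7 pair, of the difference between pairs and of the joint fit rest on them. Of the stem cell markers, PROM1 and EPCAM were lower in Hep3B-C (77.8 and 177 CPM) than in Hep3B (371 and 514) and close in Huh7 (25.1 and 43.2) and Huh7-C (20.3 and 48.7). THY1 had 0.231 CPM in Huh7-C, was at 0 in Huh7 and was not analysed in the Hep3B pair. CD14 and PECAM1, which mark immune and endothelial cells, were at most 1.38 and 21.5 CPM in any library, and VWF, also endothelial, at most 0.22. The summed level of the 6 mesenchymal or stromal markers, nearly all of it VIM, was 511 CPM in Hep3B and 76.3 in Hep3B-C, against 797 in Huh7 and 745 in Huh7-C. Whether these differences had a part in the results given here was not tested. Because RNA came from whole cultures, fewer cells of a type and less RNA per cell cannot be told apart.

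The first question was which pathway genes differed between an HCSC line and the HCC line it came from. LGR5, TBX3, APC and TCF7L2 fell in Hep3B-C against Hep3B, by 2.91-fold to 6.69-fold, and no gene of the 10 rose. Only APC passed the test in the Huh7 pair, and it rose 3.14-fold in Huh7-C, the direction opposite to that in the Hep3B pair. The remaining genes, CTNNB1 among them, passed in neither pair. Calls required a false discovery rate (FDR) of at most 0.01 in the Audic-Claverie test, a Poisson test of a pair of counts, and an absolute log2 fold-change (HCSC/HCC, with 0.5 added to each count) of at least 1. With 1 library per line the test compares these libraries and covers sampling noise only, so no call has a replicate check.

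The share of all genes called gives the background for these counts. In the Hep3B pair 13.2% of genes were called up and 30.4% down, so 4 of 10 down is near the background and is not a result about the 10 genes as a group. Their median log2 fold-change was -0.61, beside -0.68 for all genes. Background shares in the Huh7 pair were 4.19% up and 4.15% down. One called gene of the 10 sets no group apart from that either, and the median was 0.10 beside 0.07 for all genes. Scaling with TMM, which sets aside the most changed genes when it equates libraries, moved every log2 fold-change of the Hep3B pair up by 0.596. The calls over all genes of that pair changed from 2043 up and 4708 down (30.3% up) to 3348 up and 2799 down (54.5% up). The calls among the 10 changed from 0 up and 4 down to 1 up (LEF1) and 3 down (LGR5, TBX3 and APC). Changes in the Hep3B pair are therefore best read against a shift of that size.

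**Figure D1:**
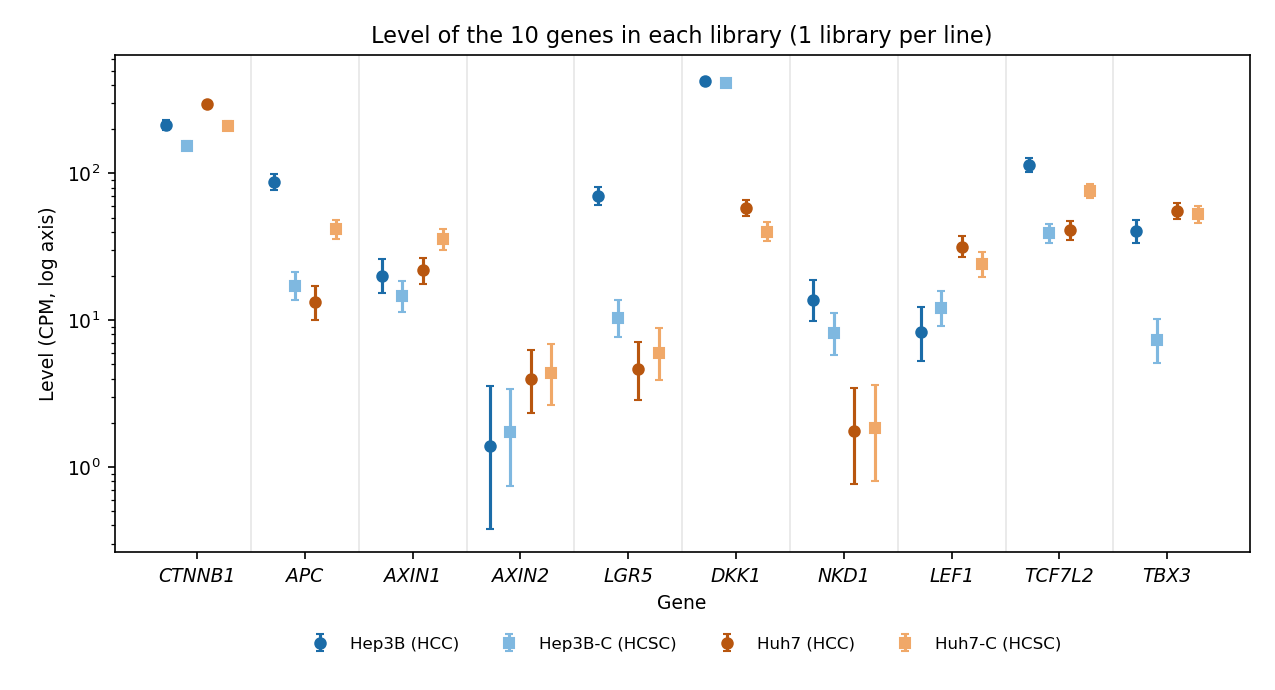
Level of each of the 10 genes in CPM (log axis) in the 4 libraries, with circles for HCC and squares for HCSC lines and bars for the exact 95% Poisson interval, which covers counting error only. LGR5, TBX3, APC, TCF7L2 and CTNNB1 stand lower in Hep3B-C than in Hep3B with intervals apart, and in the Huh7 pair APC, TCF7L2 and AXIN1 stand higher and CTNNB1 and DKK1 lower in Huh7-C with intervals apart.

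β-catenin itself (CTNNB1, Entrez ID 1499), the pathway's transcriptional co-activator and also a component of cell-cell junctions, had 614 and 715 counts in Hep3B and its HCSC line and 1340 and 916 in Huh7 and its HCSC line. These correspond to 212, 154, 295 and 211 CPM. It was the only one of the 10 genes whose HCSC libraries both lay below both HCC libraries, by a margin of 211 against 212 CPM, and 16.9% of the 13917 shared genes did the same. The log2 fold-change was -0.46 (SE 0.08) in the Hep3B pair and -0.48 (SE 0.06) in the Huh7 pair, past the FDR limit (2.2e-08 and 5.7e-14) but short of the fold limit. The Hep3B value changed sign under TMM (0.13), while the Huh7 value did not (-0.52).

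APC (324), the large scaffold that holds β-catenin in the destruction complex, had 253 counts in Hep3B and 80 in Hep3B-C, or 87.3 CPM (interval 76.9 to 98.8) and 17.2 CPM (13.7 to 21.4). It had 60 counts in Huh7 and 181 in Huh7-C, or 13.2 CPM (10.1 to 17) and 41.8 CPM (35.9 to 48.3). The parental lines thus differed at the outset, and within each pair the intervals were apart, in opposite directions. The log2 fold-change was -2.34 (SE 0.18, FDR 4.2e-43) in the Hep3B pair and 1.65 (SE 0.21, FDR 2.6e-15) in the Huh7 pair. How the Hep3B value stands to gene length and GC content is described with the trends over all genes.

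AXIN1 (8312), the rate-limiting scaffold of the same complex, was at 20, 14.6, 21.8 and 35.5 CPM in Hep3B, Hep3B-C, Huh7 and Huh7-C, from 58, 68, 99 and 154 counts. Its intervals overlapped in the Hep3B pair (log2 fold-change -0.45, SE 0.26, FDR 0.11) and were apart in the Huh7 pair (0.70, SE 0.19, FDR 0.00077), where it stayed below the fold limit. Under TMM the Hep3B value turned to 0.14. AXIN2 (8313), a scaffold that is also a feedback target of β-catenin and is commonly used as its readout, was scarce in all 4 libraries, with 4, 8, 18 and 19 counts (1.38, 1.72, 3.97 and 4.38 CPM). At this depth no difference was detectable within either pair. The log2 fold-change was 0.24 (SE 0.84) in the Hep3B pair and 0.14 (SE 0.47) in the Huh7 pair.

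LGR5 (8549), a receptor for R-spondins that strengthens Wnt signalling and a stem cell marker in several epithelia, had 202 counts in Hep3B against 48 in Hep3B-C, and 21 in Huh7 against 26 in Huh7-C. The levels were 69.7 CPM (60.5 to 80.1) in Hep3B and 10.3 CPM (7.62 to 13.7) in Hep3B-C, against 4.63 CPM (2.86 to 7.07) in Huh7 and 6.0 CPM (3.92 to 8.79) in Huh7-C. Hep3B thus stood apart from the other libraries, and Hep3B-C was above Huh7 with intervals that did not meet. LGR5 fell 6.69-fold in Hep3B-C, the greatest fall of the 10 genes, at -2.74 on the log2 scale (SE 0.23, FDR 8.8e-42). In the Huh7 pair the value was 0.37 (SE 0.42, FDR 0.68).

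DKK1 (22943), a secreted inhibitor that blocks the LRP co-receptors and is itself a target gene, was the most abundant of the 10 genes in the Hep3B lines. It had 1223 counts in Hep3B and 1922 in Hep3B-C, which correspond to 422 and 414 CPM, and 263 and 174 counts in Huh7 and Huh7-C, or 58.0 and 40.1 CPM. The Hep3B lines were both far above the Huh7 lines. Within the pairs the log2 fold-change was -0.03 (SE 0.05, FDR 0.66) and -0.53 (SE 0.14, FDR 0.00073), neither past the fold limit, and under TMM the Hep3B value was 0.57. NKD1 (85407), a feedback inhibitor that binds Dishevelled, had 40 and 38 counts in Hep3B and Hep3B-C (13.8 and 8.19 CPM) and 8 counts in each Huh7 line (1.76 and 1.85 CPM). Its log2 fold-change was -0.75 (SE 0.32, FDR 0.033) in the Hep3B pair and 0.07 (SE 0.70) in the Huh7 pair.

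The TCF/LEF core letters were looked for in the 300-base promoter windows (250 bases before to 50 after the start site) that RefSeq gives for 6 of the 10 genes, 9 windows in all. The letters were CTTTGAT and CTTTGAA, which share their first 6 bases, on both strands. Only the DKK1 window held a match, 95 bases before the start site on the gene's own strand, and 6.86% of all 35116 windows of this length hold at least one. A match is a description of letters and not a bound site. The stretch around the match is shown because it was the only match in these windows, with the matching letters in capitals (GRCh38.p14, chr10:52314156-52314222, plus strand).
DKK1: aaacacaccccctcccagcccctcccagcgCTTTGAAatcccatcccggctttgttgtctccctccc

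TCF7L2 (6934), the TCF factor most tied to adult liver and gut, had 331 counts in Hep3B and 182 in Hep3B-C, or 114 CPM (102 to 127) and 39.2 CPM (33.7 to 45.3). In Huh7 and Huh7-C it had 185 and 330 counts, or 40.8 CPM (35.1 to 47.1) and 76.1 CPM (68.2 to 84.8). The HCSC lines moved in opposite directions, as for APC. TCF7L2 fell 2.91-fold in Hep3B-C, a log2 fold-change of -1.54 (SE 0.13, FDR 6e-32), and in the Huh7 pair the value was 0.90 (SE 0.13, FDR 6.1e-11), short of the fold limit. Under TMM the Hep3B value was -0.95 and the call was lost.

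LEF1 (51176), a TCF/LEF factor that is low in normal adult liver and often induced in tumours, had 24 counts in Hep3B against 56 in Hep3B-C, and 144 in Huh7 against 105 in Huh7-C (8.29, 12.1, 31.7 and 24.2 CPM). Its intervals overlapped within both pairs. The log2 fold-change was 0.53 (SE 0.35, FDR 0.20) in the Hep3B pair and -0.39 (SE 0.18, FDR 0.092) in the Huh7 pair, and under TMM the Hep3B value became 1.12 and was called up.

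The 4 TCF/LEF factors were also set beside each other by RPKM. TCF7L2 made up 38.9% of their summed RPKM in Hep3B and 14% in Hep3B-C, and 28.5% in Huh7 and 46.0% in Huh7-C. TCF7L1, which more often acts as a repressor, made up 44.0% and 58.7% in the Hep3B pair and 11.7% and 9.95% in the Huh7 pair. LEF1 held between 3.70% (Hep3B) and 29.1% (Huh7), and TCF7, the T cell factor of the family, between 13.4% (Hep3B) and 30.7% (Huh7). The leading factor by RPKM was thus TCF7L1 in Hep3B-C and TCF7L2 in Huh7-C. In Hep3B the counting intervals of TCF7L1 (28.3 to 36.3 RPKM) and TCF7L2 (25.5 to 31.7) overlapped. In Huh7 the shares of TCF7, LEF1 and TCF7L2 lay between 28.5% and 30.7%. With 1 library per line these shares have no replicate spread.

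TBX3 (6926), a T-box repressor that is a β-catenin target in liver tumours, had 117 counts in Hep3B against 34 in Hep3B-C, and 251 in Huh7 against 229 in Huh7-C. The levels were 40.4 CPM (33.4 to 48.4), 7.32 CPM (5.07 to 10.2), 55.3 CPM (48.7 to 62.6) and 52.8 CPM (46.2 to 60.1). Hep3B-C was the one low library. TBX3 fell 5.46-fold there, a log2 fold-change of -2.45 (SE 0.28, FDR 8.6e-22), while the Huh7 value was -0.07 (SE 0.13, FDR 0.79).

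**Figure D2:**
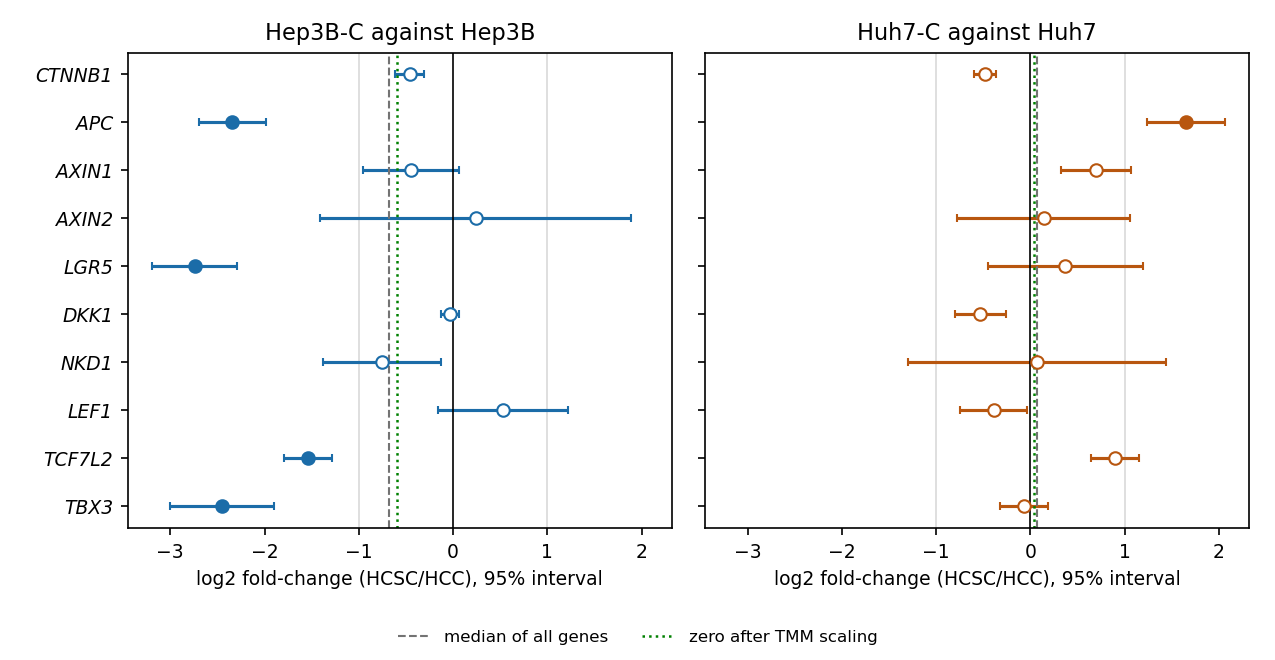
log2 fold-change (HCSC/HCC) of the 10 genes in the Hep3B pair (left) and the Huh7 pair (right), with 95% intervals from the SE and filled points for called genes. The dashed line is the median of all genes (-0.68 left, 0.07 right), the dotted line is where zero would lie after TMM scaling, and in the left panel LGR5, TBX3, APC and TCF7L2, and just so the uncalled NKD1 (-0.75), lie left of both lines.

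Levels were ordered per length within each library. In Hep3B the order was DKK1 (234 RPKM), CTNNB1 (57), TCF7L2 (28.4), LGR5 (24.2), TBX3 (8.45), APC (7.92), AXIN1 (5.81), NKD1 (5.34), LEF1 (2.70) and AXIN2 (0.326). The counting intervals of TCF7L2 and LGR5 overlapped, as did those of each neighbouring pair from TBX3 to LEF1. In Hep3B-C, DKK1 (229), CTNNB1 (41.4) and TCF7L2 (9.76) kept the top places, LGR5 was at 3.59 between LEF1 (3.93) and NKD1 (3.17) with overlapping intervals, and TBX3 (1.53) and APC (1.56) overlapped each other above AXIN2 (0.407). In the Huh7 lines CTNNB1 led, at 79.4 RPKM in Huh7 and 56.8 in Huh7-C, ahead of DKK1 at 32.1 and 22.2. TBX3 (11.6), LEF1 (10.3) and TCF7L2 (10.1) overlapped in Huh7, whereas in Huh7-C TCF7L2 (18.9) stood above TBX3 (11) and overlapped DKK1. AXIN2 and NKD1 were the lowest of the 10 in both Huh7 lines, at 0.682 to 1.04 RPKM, with overlapping intervals.

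The second question was whether the change differed between the pairs, tested as the ratio of their count ratios with an exact conditional test adjusted over 13917 genes. APC differed most, with a difference (Hep3B pair minus Huh7 pair) of -3.99 (SE 0.28, FDR 2e-51). It was followed by LGR5 at -3.11 (SE 0.48, FDR 1.7e-09), TCF7L2 at -2.44 (SE 0.19, FDR 3.6e-39), TBX3 at -2.38 (SE 0.31, FDR 1.2e-15) and AXIN1 at -1.15 (SE 0.32, FDR 0.0011). These 5 genes were called lower in the Hep3B pair and 0 were called higher, where 26.0% of all genes were called lower and 13.5% higher. The differences were 0.91 for LEF1, 0.50 for DKK1, 0.09 for AXIN2, 0.02 for CTNNB1 and -0.82 for NKD1, none of them called. The AXIN1 difference was no longer called under TMM (-0.52) or with the length trend of each pair removed (-0.39). Under TMM, in turn, DKK1 (1.14) and LEF1 (1.55) were called higher in the Hep3B pair.

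HCSC and HCC lines were also compared over all 4 libraries with edgeR, blocking on the parent, so that 1 residual degree of freedom was left. None of the 10 genes was called at an FDR of 0.05, beside 0.0342% of 11691 genes called up and 0.0428% called down. None had an unadjusted p below 0.05 with edgeR or with DESeq2. The joint log2 fold-changes ran from -1.08 for LGR5 and -1.07 for TBX3 to 0.35 for AXIN2, with an adjusted p of 1.0 for all 10. The HCC libraries came from different parents, as did the HCSC libraries, so the spread between the pairs is the only error in this fit.

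Fold-changes also followed gene length and GC content across all genes with at least 20 counts in a pair. In the Hep3B pair Spearman's coefficient across 11338 genes was -0.43 with gene length and 0.63 with GC content, and in the Huh7 pair it was 0.32 and -0.06 across 11060 genes. Genes are not independent replicates, so these are descriptions. In the longest twentieth of genes the median log2 fold-change was -1.79 in the Hep3B pair and 0.52 in the Huh7 pair, and in the shortest it was 0.71 and -0.28. APC, with a gene length of 11025 bases, was longer than 98.6% of genes, and its GC content (39.6%) was also low.

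**Figure D3:**
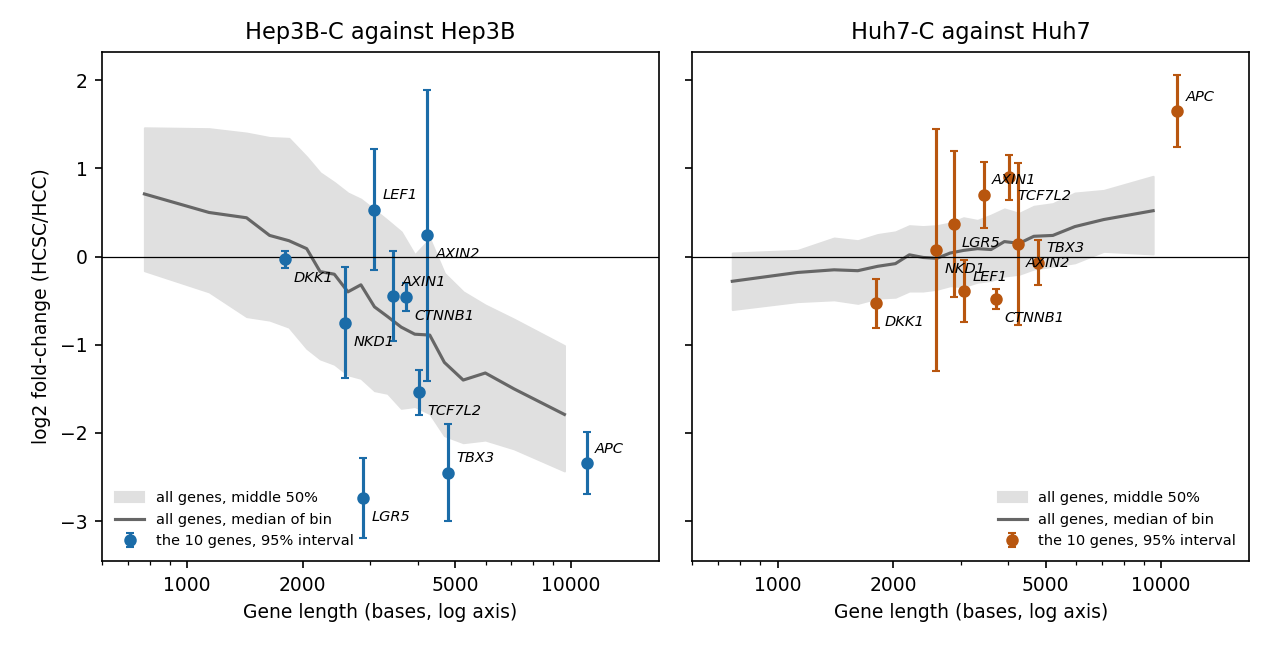
log2 fold-change (HCSC/HCC) against gene length (log axis) in the Hep3B pair (left) and the Huh7 pair (right), with the 10 genes as points with 95% intervals, the grey line for the median of all genes in 20 length bins and the band for the middle 50% of genes. In the left panel LGR5 and TBX3 lie below the band and APC continues the falling line at its long end, while in the right panel APC lies above the rising line.

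With the length trend of its pair taken out, APC's log2 fold-change in the Hep3B pair was -0.53, and with the GC and length trends both taken out it was 0.00, and it was called under neither. TCF7L2 went to -0.69 and then -0.40, also not called. LGR5 stayed called at -2.33 and -2.00, and so did TBX3 at -1.35 and -1.97. LEF1 was called up at 1.03 under both adjustments. With both trends removed AXIN1 (-1.12) and NKD1 (-1.59) were called down as well, although the GC content of NKD1 was read from a 748-base transcript that is much shorter than the 2586 bases counted. In the Huh7 pair APC stayed called at 1.04 under both adjustments. The differences between the pairs, recomputed in the same way after the data had been seen, were -2.34 for LGR5, -1.68 for TBX3, -1.15 for TCF7L2 and -1.04 for APC with both trends removed, all still called.

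When a coefficient of variation of 0.4 between replicate cultures was assumed, as is often done for unreplicated human samples, none of the 10 genes was called in either pair. With 1 library per line the real spread between cultures of a line is not known, so whether 0.4 suits these lines was not tested. The lowest FDR was then 0.052 for LGR5 in the Hep3B pair, followed by 0.091 for TBX3 and 0.093 for APC, and that of APC in the Huh7 pair was 1.0. Few genes of any kind passed this setting, 62 up and 169 down of 15480 in the Hep3B pair (1.49%) and 13 up and 12 down of 14807 in the Huh7 pair (0.169%), so 0 of 10 is near that background.

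**Figure D4:**
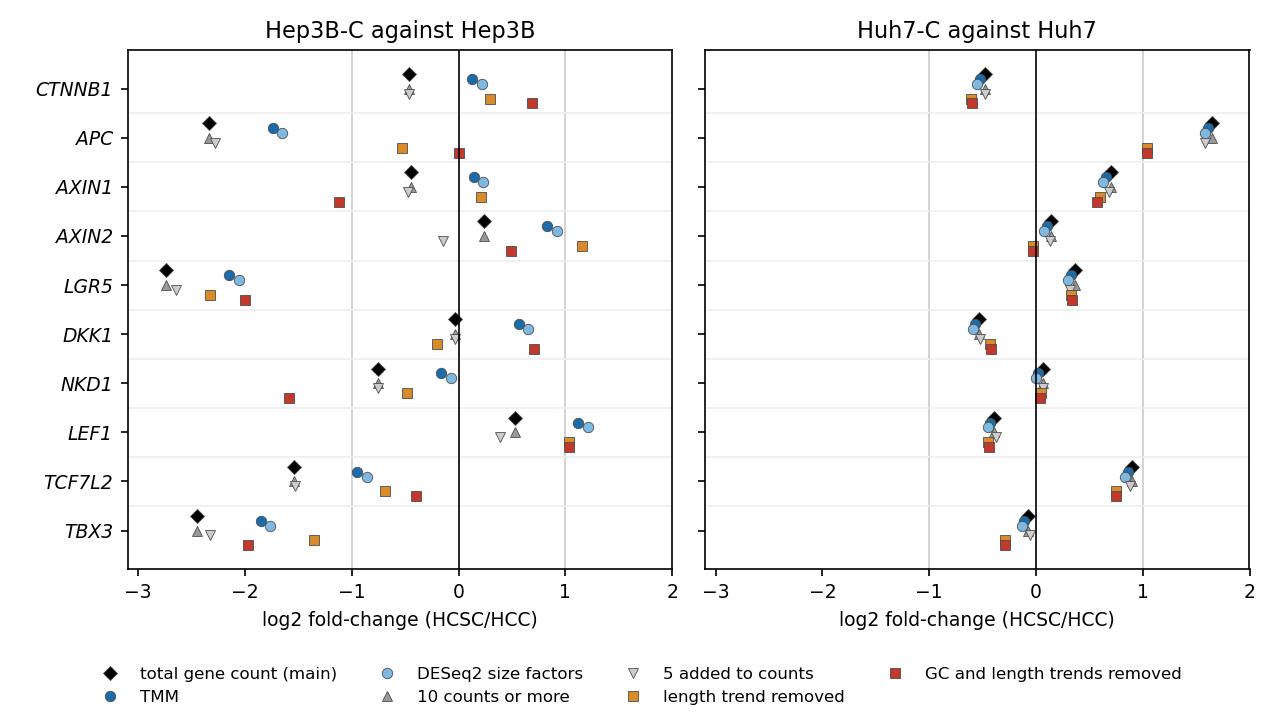
log2 fold-change (HCSC/HCC) of the 10 genes in each pair under 7 ways of computing it, 1 marker each, with grey lines at -1 and 1. In the Hep3B pair (left) LGR5 and TBX3 stay below -1 under all 7 and APC spreads from -2.34 to 0.00, while in the Huh7 pair (right) APC has the widest spread, from 1.04 to 1.65.

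Beyond these 10, 106 other pathway genes had been listed by role, of which 89 had counts in the series and 17 were not analysed here. Of 82 in the Hep3B pair, 7 rose and 20 fell (median log2 fold-change -0.67, 13.2% and 30.4% of all genes called up and down). Under TMM 11 rose and 10 fell, beside 3348 and 2799 of all 15480 genes. Of 80 in the Huh7 pair, 6 rose and 4 fell (median 0.07, background 4.19% and 4.15%). The joint edgeR fit called 0 of 67, with 4 at an unadjusted p below 0.05, and DESeq2 called 0 of 89, with 2. Both lists thus sat near the background of their pair, and the background of the same scaling applies to each count by role given next. Some roles lay above it in the Hep3B pair, among them receptors (7 of 15 down) and the destruction complex (5 of 9 down). Dishevelled genes and regulators (3 of 10 up) did so too. The roles are small and were not tested against all genes, so no role is set apart by its count. Genes outside the naming rule that are given in the next paragraphs (LRP6, LGR4, FZD2, RNF43, SOSTDC1, DKK3, DVL2, GSK3B, GSK3A, CSNK1A1, FBXW11, TNKS, CREBBP, EP300, CHD8, BCL9, SP5 and LECT2) were named after their values had been seen, to account for small counts.

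Ligands were scarce. The 11 WNT genes with counts summed to 12 and 18 counts in Hep3B and Hep3B-C and to 65 and 70 in Huh7 and Huh7-C, with WNT3 (2.06 RPKM in Huh7) and WNT10B (1.83) the highest. WNT2 had 0 counts in Huh7 and 21 in Huh7-C and was the 1 ligand called up. Its level in Huh7-C, 4.85 CPM (interval 3.0 to 7.41), was 7.33 times the level of 3 counts in Huh7. That ratio is not a lower bound, because it leaves out counting error, and the Huh7 interval reached 0.813 CPM. WLS, the carrier that brings Wnt proteins to the cell surface, went from 12 to 121 counts in the Hep3B pair and rose there (log2 fold-change 2.60, SE 0.43, FDR 1.2e-13). Among secreted inhibitors NOTUM, an enzyme that strips the lipid from Wnt proteins, rose from 10 to 84 counts in the Hep3B pair (2.33, SE 0.47, FDR 9.5e-09) and went from 22 to 7 counts in the Huh7 pair, which did not pass (-1.52, FDR 0.025). NOTUM was not called with GC and length trends removed (1.14). SOSTDC1 was called down in the Hep3B pair (10 to 3 counts), a call lost under TMM and with GC and length removed, and DKK3 fell in the Huh7 pair.

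Of 15 receptors in the Hep3B pair, 7 fell and 0 rose (median -1.16, background 30.4% down and 13.2% up). Under TMM 5 fell, where 2799 of all 15480 genes were down. In the Huh7 pair 2 of 16 rose (FZD6 and LRP6) and 1 fell (FZD4). The 9 Frizzled genes summed to 324 CPM in Hep3B and 59.7 in Hep3B-C, against 114 in Huh7 and 140 in Huh7-C. FZD5, which held 74.7% of the family's RPKM in Hep3B, had 790 and 214 counts in the Hep3B pair and 240 and 395 in the Huh7 pair. It fell 5.91-fold in Hep3B-C, a log2 fold-change of -2.56 (SE 0.11), and was at 0.78 in the Huh7 pair, short of the fold limit. FZD6 went from 58 to 2 counts in the Hep3B pair, a ratio of 46.5 (exact 95% interval 12.3 to 393), and rose in the Huh7 pair from 8 to 27 counts (log2 fold-change 1.76, FDR 0.0047).

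FZD4 was called down in both pairs, from 29 to 10 counts and from 122 to 37, but in the Hep3B pair it went from -2.17 to -0.69 with length and -0.63 with GC and length removed and was then not called. RYK, a Wnt receptor with an inactive kinase domain, fell 6.32-fold in Hep3B-C (297 to 75 counts) and was at -0.05 in the Huh7 pair. The other receptors called down in the Hep3B pair were FZD2, LGR4 and LRP6. FZD2 (17 to 5 counts) was not called under TMM. LGR4 was not called under TMM (-0.56) and turned to 0.04 and 0.56 with length, and GC and length, removed. LRP6 stayed called under TMM (-1.27) but went to -0.13 and 0.38 under these adjustments, which also ended its Huh7 call (0.59 and 0.58). RNF43, which removes Frizzled receptors from the surface, was called down in the Hep3B pair at -1.10 but not under TMM (-0.51). It was also not called with length (-0.07) or GC and length (-0.98) removed.

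In the destruction complex 0 of 9 other genes rose and 5 fell in the Hep3B pair (GSK3B, CSNK1A1, FBXW11, TNKS and TNKS2, median -1.18, background 30.4% down). Under TMM 2 were down (FBXW11 and TNKS2) and 1 was up (GSK3A), beside 2799 down and 3348 up of all 15480 genes. With the length trend removed none of the 5 was called, and GSK3B (0.21) and TNKS (0.11) turned sign. None was called in the Huh7 pair (median 0.37). TNKS2, a tankyrase that marks AXIN for degradation, had 202, 72, 92 and 143 counts in Hep3B, Hep3B-C, Huh7 and Huh7-C. Its log2 fold-change in the Hep3B pair was -2.16 (SE 0.20), and -0.37 with GC and length trends removed. Of 10 Dishevelled genes and regulators 3 rose and 0 fell in the Hep3B pair (background 13.2% up). DVL1, which relays the signal from Frizzled, rose from 85 to 544 counts (1.99, SE 0.17, FDR 2.7e-42) and DVL2 also rose, although not with GC and length removed (0.58). NKD2, the paralog of NKD1, rose in the Hep3B pair from 9 to 174 counts (3.52, SE 0.48). It was also called up in the Huh7 pair, from 12 to 32 counts (1.44, SE 0.48, FDR 0.0083), a call lost under TMM (1.40).

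Among β-catenin partners the coactivators CREBBP and EP300 and the repressor CHD8 were called down in the Hep3B pair. All of these calls were lost under TMM (-0.88, -0.94 and -0.44) and the values turned sign with length removed (0.26, 0.09 and 0.45). With GC and length removed CREBBP and EP300 were again negative (-0.94 and -0.61) and CHD8 was at 0.24, none of them called. BCL9 and EP300 were called up in the Huh7 pair, at 1.1 and 1.2, and not with length removed (0.76 and 0.71). Groucho corepressors, which bind TCF factors in the absence of β-catenin, went both ways in the Hep3B pair. TLE1 (411 to 141 counts) and TLE2 (154 to 63) fell, with log2 fold-changes of -2.22 and -1.96 (-1.62 and -1.37 under TMM), and TLE3 rose from 2 to 159 counts, a ratio of 49.6 (exact 95% interval 13.5 to 413). The same genes were at -0.31, 0.08 and 0.19 in the Huh7 pair. Of the target genes, SP5 rose in the Hep3B pair (4 to 30 counts), though not with GC and length removed (0.80). LECT2 fell there, from 14 counts to 0, and was not analysed in the Huh7 pair. CD44, a hyaluronan receptor, fell in Huh7-C from 177 to 22 counts (-2.91, SE 0.32, FDR 1.7e-28) and was not analysed in the Hep3B pair. The glutamate transporter SLC1A2 fell in Huh7-C from 97 to 8 counts (-3.45, SE 0.52, FDR 1.3e-18).

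**Figure D5:**
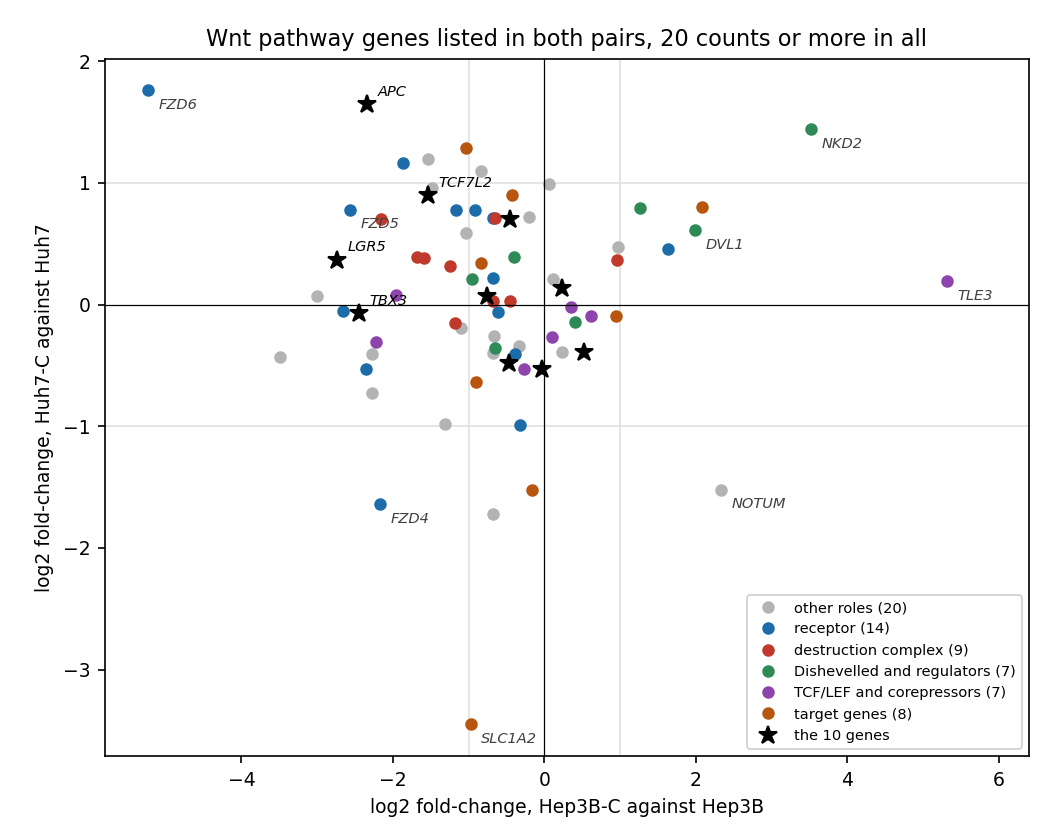
log2 fold-change (HCSC/HCC) in the Hep3B pair against that in the Huh7 pair for 65 other pathway genes listed in both pairs with at least 20 counts over the 4 libraries, coloured by role, and for the 10 genes (stars). APC, FZD6 and TCF7L2 lie at upper left, lower in Hep3B-C and higher in Huh7-C, and NKD2 at upper right is higher in both HCSC lines.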

How the data were processed

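RNA sequencing libraries of Hep3B, Hep3B-C, Huh7 and Huh7-C were analysed, and groups and parents were taken from the sample labels. The deposited values were read counts per gene, which the authors obtained by filtering Illumina Genome Analyzer II reads, aligning them to NCBI Build 36.1 with NextGENe and counting reads per transcript. Gene length, a deposited column in bases, was used for RPKM. The version of the aligner and the handling of multiply mapped reads were not given in the sources used here, so counts of related genes (FZD, WNT, TLE and TCF families) may share reads.

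Counts were joined by Entrez ID. Pair tests (Audic-Claverie, two-sided, 0.5 added for fold-changes only, scaled by total gene count) and the exact conditional test of the difference between pairs were adjusted by Benjamini-Hochberg over all genes of the table. The joint fit used edgeR 4.0.16 (quasi-likelihood, TMM, filterByExpr, parental line as block, which pairs each HCSC line with the line it came from). A gene listed for only 1 pair was taken as 0 counts in the other. Alternatives used TMM, DESeq2 1.42.0, at least 10 counts, 5 added to counts, an assumed coefficient of variation of 0.4, and lowess trends on gene length and GC content fitted on genes with at least 20 counts. GC content came from the GENCODE release 29 transcript closest in length. It was available for 99.2% and 99.3% of the genes with at least 20 counts in the Hep3B and Huh7 pairs. Intervals of levels are exact Poisson 95% intervals. Tests were tried on simulated data with known changes. The simulation of the joint fit had a smaller spread than these libraries and no difference between parents. It therefore does not show how well that fit finds changes here. Python 3.11.15 (scipy 1.17.1, statsmodels 0.14.6) and R 4.3.3 were used.

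The 10 genes, the role lists and the tests were chosen with earlier results of these data known. Other pathway genes were named if called in either pair with at least 50 counts in a library, up to 14 by fold-change and at most 4 per role, together with up to 3 ligands, Frizzled receptors and TCF/LEF factors with the highest RPKM. Gene positions are not printed because no annotation of Build 36.1 was used here.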

Additional observations from a re-analysis of the deposited data

Results flagged for a closer look

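The change between HCSC and HCC line differed between the pairs, by the exact conditional test of the difference itself, for 5 of the 10 genes. The differences in log2 fold-change (Hep3B pair minus Huh7 pair) were -3.99 for APC, -3.11 for LGR5, -2.44 for TCF7L2, -2.38 for TBX3 and -1.15 for AXIN1. In APC and TCF7L2 the HCSC lines lay on opposite sides of their parents, although with the GC and length trends removed APC in the Hep3B pair was at 0.00, whereas for LGR5 and TBX3 the difference came with a fall in Hep3B-C and values of 0.37 and -0.07 in the Huh7 pair. The test covers sampling noise of single libraries, and 26.0% of all genes were called lower in the Hep3B pair in the same way. After removal of the GC and length trends the differences stood at -1.04 for APC and -2.34 for LGR5. The AXIN1 difference was no longer called under TMM (-0.52) or with the length trend removed (-0.39), and was called at -1.68 with GC and length removed.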

How the results depend on the processing

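LGR5 and TBX3 were called down in the Hep3B pair in 7 of 8 settings, APC in 5 and TCF7L2 in 3, and APC was called up in the Huh7 pair in 7 of 8. The settings with at least 10 counts and with 5 added to counts reuse the unadjusted p-values of the main setting. They are therefore not separate checks, and TCF7L2 was called only in the main setting and in these. The assumed coefficient of variation of 0.4 left 0 of the 10 genes called in either pair, and of the other pathway genes it left 1 up and 1 down in the Hep3B pair and 0 up and 0 down in the Huh7 pair, beside 1.49% and 0.169% of all genes called in either direction. In the Hep3B pair 1 of the 10 genes was called up under TMM, DESeq2 size factors, the length adjustment and the GC and length adjustment, and 2 were called down with the length trend removed. Other pathway genes called up in that pair numbered 11 (TMM), 13 (DESeq2 size factors) and 13 (length), and those called down 10, 9 and 8 in the same order and 12 with GC and length removed. All genes called up and down there numbered 3348 and 2799 (TMM), 3549 and 2553 (DESeq2 size factors), 2658 and 2750 (length) and 1584 and 1922 (GC and length). In the Huh7 pair the other pathway genes called up numbered 2 (length) and 3 (GC and length), beside 381 and 382 of all genes. The median of the 10 genes in the Hep3B pair was -0.01 (TMM), 0.07 (DESeq2 size factors) and -0.20 (GC and length). Members called higher in the Hep3B pair than in the Huh7 pair numbered 2 (TMM), 1 (length) and 3 (GC and length), the latter DKK1, CTNNB1 and LEF1. The share of all genes called higher is given for the main scaling only (13.5%). These counts therefore have no background of their own and are not a result about the 10 genes as a group.

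Signs turned in genes that were not called. In the Hep3B pair DKK1 became 0.57, 0.65 and 0.71 under TMM, DESeq2 size factors, and GC and length. AXIN1 became 0.14, 0.23 and 0.21 under TMM, DESeq2 size factors, and length. CTNNB1 became 0.13, 0.22, 0.29 and 0.69 under TMM, DESeq2 size factors, length, and GC and length. AXIN2 became -0.15 with 5 added to each count, and -0.03 in the Huh7 pair with length or GC and length removed.

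Over both pairs, edgeR called 0 of the 10 genes in every setting run. Without the replicate block DKK1 became 0.26 and LEF1 -0.07, and calls over all genes went from 4 up and 5 down to 0 and 0. Each library was then left out in turn, with no replicate block and with the lone library assumed to vary like the other group. Without Hep3B the values were 0.91 for LGR5, 2.12 for DKK1, 1.18 for APC, -0.36 for AXIN2, 1.62 for NKD1, -0.78 for LEF1 and 0.53 for TCF7L2. Without Huh7, CTNNB1 was 0.10. Without Hep3B-C, TCF7L2 was 0.11 and TBX3 0.20. Without Huh7-C the values were 1.15 for DKK1, -0.25 for AXIN1, -0.43 for AXIN2, 0.44 for NKD1 and -0.54 for LEF1. With a library left out, the parents were unequally represented in the HCSC and HCC groups. Each value then mixes the difference between parents with that between HCSC and HCC lines, and these cannot be told apart. The cause of these turns was not tested. Depth limits AXIN2, NKD1 in the Huh7 lines and the WNT genes, which had few counts.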

Other observations

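Some β-catenin targets that were not called with the main scaling are given by their values, chosen after these had been seen. GLUL, the glutamine synthetase of hepatocytes around the central vein, had 1708 counts in Hep3B and 5298 in Hep3B-C, a log2 fold-change of 0.95 (1.55 under TMM, 1.09 with GC and length trends removed), while LGR5 and TBX3 were called down in the same pair. GLUL was short of the fold limit with the main scaling only narrowly. It passed both limits as up in the Hep3B pair with the length trend removed (1.63) and with GC and length trends removed. In the Huh7 pair GLUL had 1070 and 960 counts, a log2 fold-change of -0.09. MYC, a growth regulator, stood at -0.43 in the Hep3B pair (0.17 under TMM) and 0.90 in the Huh7 pair. CCND1, cyclin D1, stood at -0.84 (-0.24 under TMM) and 0.34. The other listed target genes called in neither pair with the main scaling went both ways in the Hep3B pair. RHBG was at -1.04 (13 to 10 counts), OAT at -0.9 (35 to 30) and CYP1A2 at -0.16 (11 to 16). With GC and length trends removed RHBG was at -2.01 and passed both limits. CYP2E1 was at 1.27 (3 to 13 counts). These values have no replicate check.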
